A study of Gallus gallus with 24 samples.

Results

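The matrix proteases, their inhibitors and the enzymes that crosslink collagen were followed across all 24 libraries of the series. Members were taken by gene symbol alone, with no measured value used, as the numbered members of the MMP, TIMP, ADAM, ADAMTS and ADAMTSL families, LOX and the LOXL genes, PLOD1 to PLOD3, P4HA1 to P4HA3 and the SERPINE and SERPINH genes. The rule found 57 of the 12422 gene symbols in the expression table: 10 MMP, 3 TIMP, 11 ADAM, 18 ADAMTS, 4 ADAMTSL, 4 lysyl oxidase, 2 PLOD and 3 P4HA genes, with SERPINE2 and SERPINH1. All 57 were used, since no filter on low values was applied here.

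The samples were sinoatrial node (SAN) and atrial tissue microdissected from chick embryos at Hamburger-Hamilton (HH) stage 30. CN03-treated tissue was cultured for 14 h with 0.25 ug/ml CN03, a bacterial-toxin-derived activator of the small GTPase RhoA, vehicle-treated tissue was cultured for 14 h with water as the vehicle, and t0 tissue was freshly isolated. Each of the 6 groups (CN03, vehicle and t0, in SAN and in atria) held 4 replicates, and every replicate was a pool of 5 tissue preparations. No group carried a transgene or a mutation by its labels, both cultured groups shared a serum-containing medium with antibiotic and antifungal, and t0 tissue had no culture, so that culture and its medium cannot be told apart in the comparison of vehicle with t0. The study asked what RhoA activation does to the SAN and to the atria, and what culture alone does.

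Matrix metalloproteinases (MMPs) cut collagens and other matrix proteins, ADAM proteases mostly shed proteins from the cell surface, and the secreted ADAMTS proteases process procollagen, cut proteoglycans such as versican and aggrecan, or act on microfibrils. TIMPs bind and inhibit these metalloproteinases. Newly made collagen is hydroxylated by the P4HA and PLOD enzymes and folded with the chaperone SERPINH1 inside the cell, and is then crosslinked outside it by lysyl oxidases. In the developing heart these activities remodel the cardiac jelly and the valves.

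The values below are log2 expression as deposited, given for replicates 1 to 4 of each group, and log2FC is the difference of 2 group means on that scale. A gene was called at an adjusted p under 0.05 with a log2FC above 1 or below -1, by limma over all 12422 genes. The reads behind a value are unknown and the values are not stated to be per length, so levels were compared between samples and not between genes. Libraries of a group correlated at 0.977 to 0.992, and no library was left out. Tissue labels were borne out by 5 of 5 SAN pacemaker markers higher and 5 of 5 atrial markers lower in SAN than in atria at t0. Macrophage and leukocyte markers fell with CN03: 11 of 12 were lower in SAN and 8 of 12 in atria. Their summed level was 4.48 to 4.86 in CN03-treated SAN and 7.24 to 7.55 in vehicle-treated SAN, and 4.27 to 4.48 in CN03-treated atria and 5.75 to 6.72 in vehicle-treated atria, with C1QA, C1QB, C1QC, MARCO, LY86 and TLR4 averaging below 0 in both CN03 groups. Of 10 fibroblast and mesenchyme markers, 5 fell and 1 rose with CN03 in SAN, and 3 fell and 1 rose in atria. Of 8 epicardial and mesothelial markers, 4 fell and none rose with CN03 in SAN, and 6 fell and 2 rose in atria. These are whole tissues, in which fewer cells of a type and less RNA per cell cannot be told apart, and the part of cell composition in the results was not tested.

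CN03 changed 25 of the 57 genes in SAN, 10 higher and 15 lower, which was 43.9% of them against a background of 27.4% of all genes (10.2% higher and 17.1% lower). In atria it changed 29, 17 higher and 12 lower, or 50.9% against a background of 29.4% (13.8% higher and 15.6% lower). The median log2FC was -0.18 over the members and -0.06 over all genes in SAN, and 0.16 over the members and -0.01 over all genes in atria. The genes that rose in both tissues were MMP1, MMP9, ADAM8, ADAM33, TIMP2, TIMP3, LOXL2, P4HA2, ADAMTS2 and ADAMTS4. Those that fell in both were ADAM11, ADAM12, MMP24, ADAMTSL5 and 8 ADAMTS genes, ADAMTS7, ADAMTS10, ADAMTS13, ADAMTS15, ADAMTS17, ADAMTS18, ADAMTS19 and ADAMTS20. The 22 genes called in both tissues all had the same direction in SAN and atria, as had 2482 of the 2489 genes called in both over the whole table. Another 3 were called in SAN alone, 7 in atria alone and 25 in neither. Over all 12422 genes, 911 were called in SAN alone, 1163 in atria alone and 7859 in neither. Genes called in both tissues made up 88% of the SAN calls of members, against 73.2% over all genes. Of the atrial calls they made up 75.9% for members and 68.2% over all genes.

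**Figure D1:**
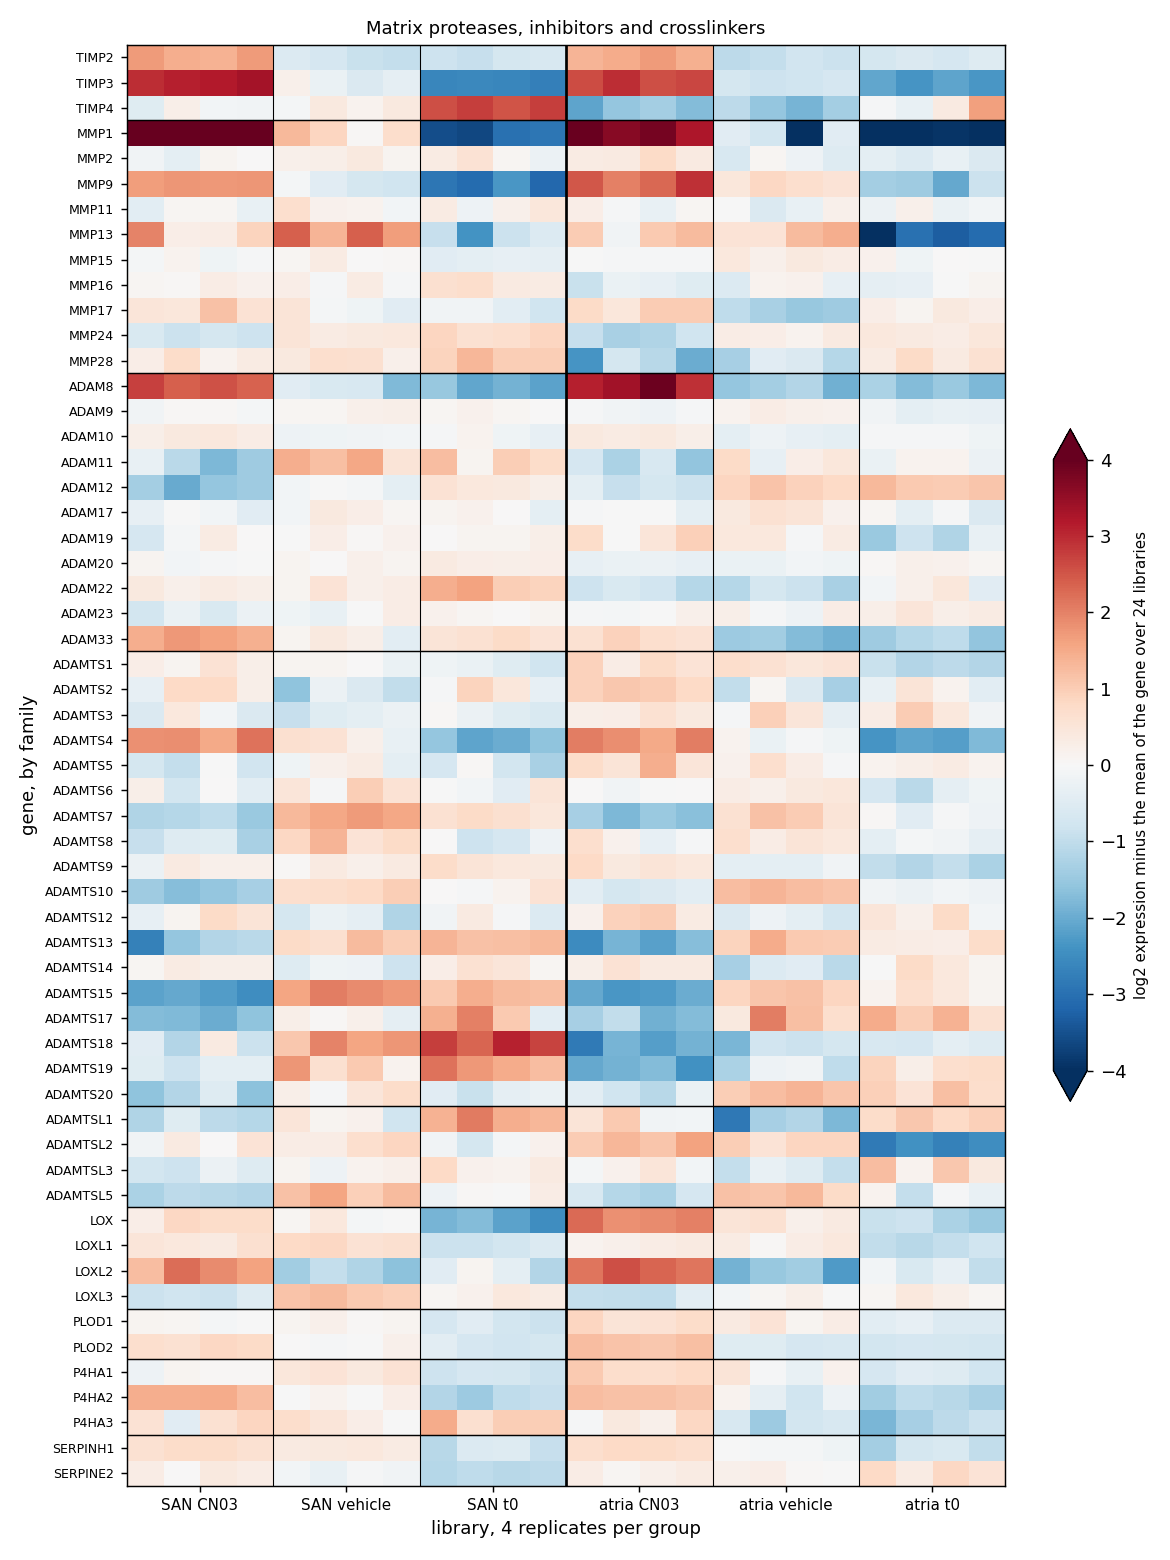
Log2 expression of the 57 genes (rows, by family) in the 24 libraries (columns, 4 replicates per group), each value minus the mean of its gene over all libraries, with values beyond 4 or -4 drawn in the end colours. TIMP3, MMP1, MMP9, ADAM8 and LOXL2 are high in the CN03 libraries of both tissues, and ADAMTS7, ADAMTS13 and ADAMTS15 are low in them.

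**Figure D2:**
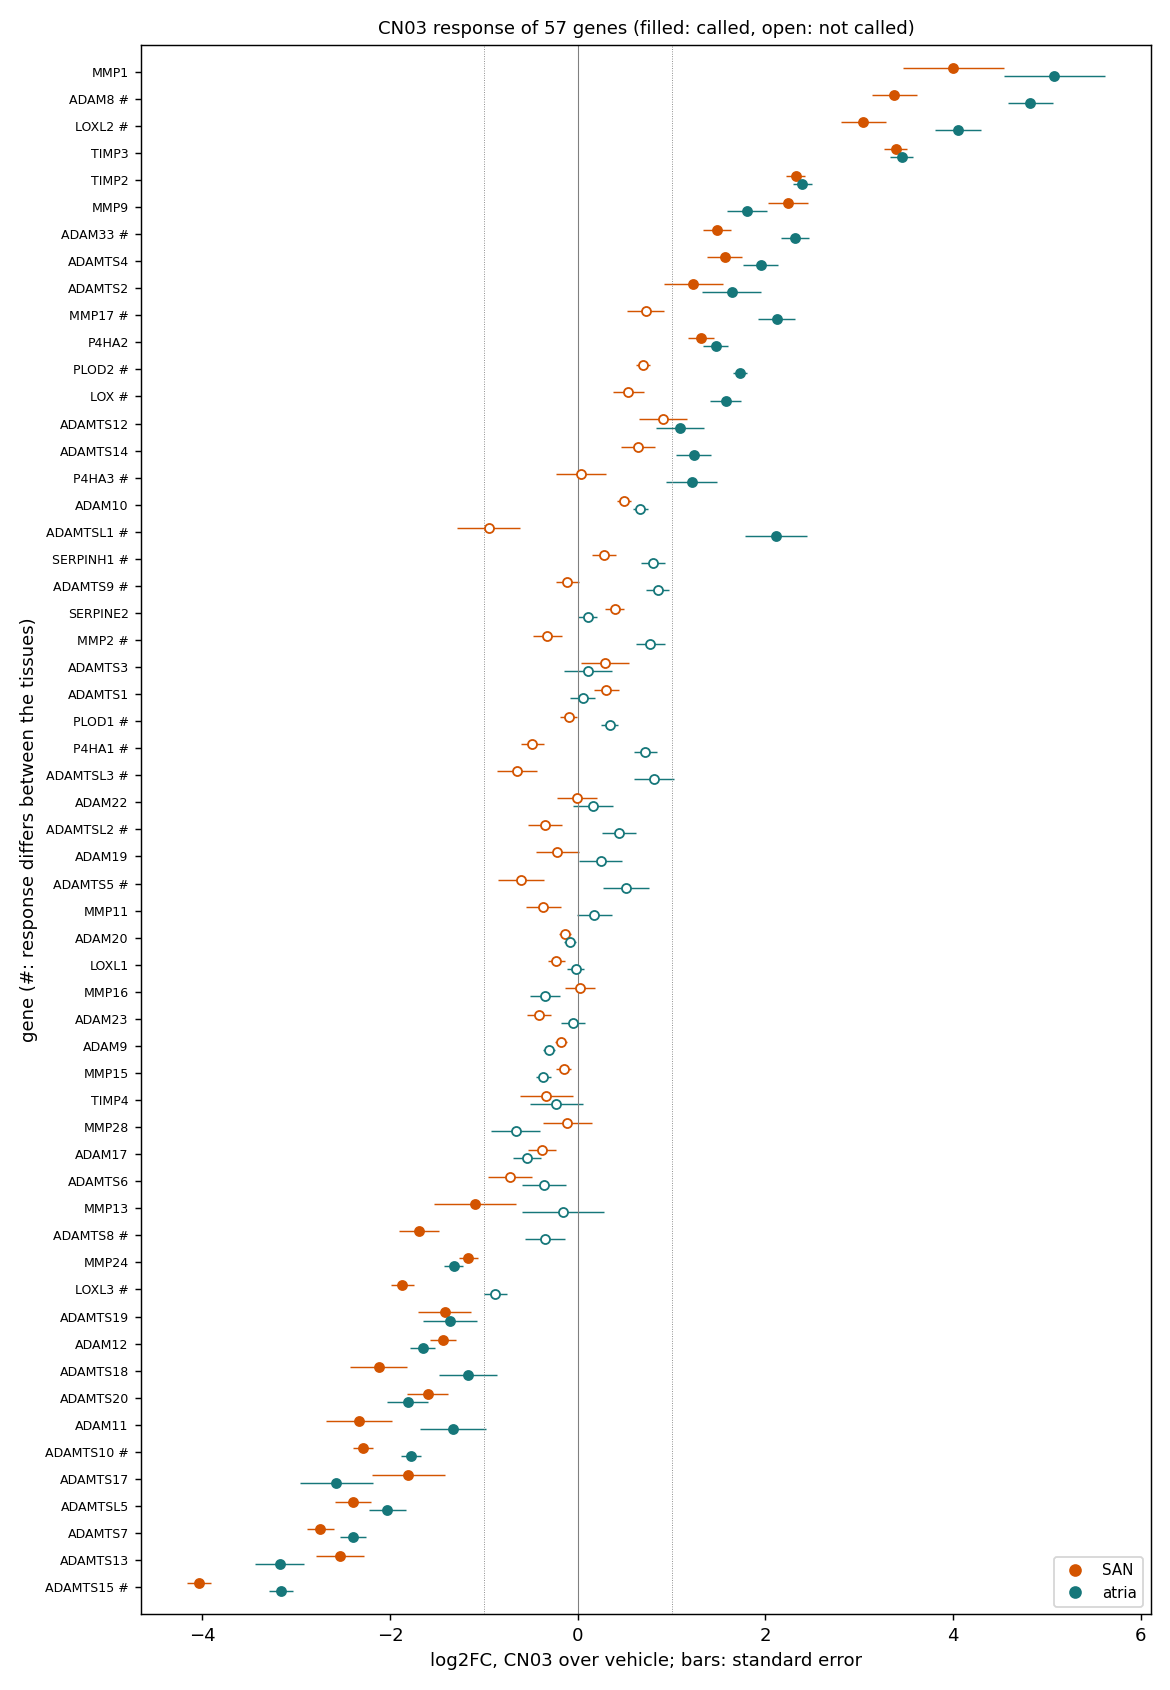
Log2FC of CN03 over vehicle for each of the 57 genes (rows) in SAN and in atria, with standard errors from limma, dotted lines at 1 and -1, and # at the 20 genes whose response differed between the tissues. MMP1, ADAM8 and LOXL2 are at the top, ADAMTS15 is at the bottom, and for all 20 marked genes the SAN point lies to the left of the atrial point.

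The inhibitors were led by TIMP3, which binds to the matrix and inhibits MMPs, ADAM17 and the aggrecan-cutting ADAMTS proteases. TIMP3 lies at chr1:53137054-53174022 (GRCg7b), within the span of SYN3. In SAN, TIMP3 had log2 expression of 11.90, 12.06, 12.11 and 12.25 with CN03, 9.15, 8.68, 8.36 and 8.58 with vehicle and 6.33, 6.35, 6.34 and 6.20 at t0. TIMP3 in atria had log2 expression of 11.54, 11.88, 11.52 and 11.62 with CN03, 8.24, 8.10, 8.14 and 8.28 with vehicle and 6.86, 6.58, 6.83 and 6.61 at t0. In both tissues all CN03 libraries lay above all vehicle libraries, and these above all t0 libraries. TIMP3 was 10.5-fold higher with CN03 than with vehicle in SAN (log2FC 3.39, SE 0.12, adjusted p = 2.5e-16) and 10.9-fold higher in atria (log2FC 3.45, SE 0.12, adjusted p = 6.11e-17). Over culture alone it rose by 2.39 in SAN and 1.47 in atria on the log2 scale. The culture and CN03 comparisons share the vehicle libraries, here and throughout.

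TIMP2, which inhibits MMPs and also takes part in activating MMP2 at the cell surface, rose with CN03 but not over culture. TIMP2 in SAN had log2 expression of 9.83, 9.56, 9.51 and 9.80 with CN03, 7.57, 7.43, 7.23 and 7.17 with vehicle and 7.28, 7.20, 7.41 and 7.48 at t0. In atria, TIMP2 had log2 expression of 9.48, 9.59, 9.80 and 9.53 with CN03, 7.07, 7.16, 7.36 and 7.24 with vehicle and 7.41, 7.52, 7.43 and 7.59 at t0. CN03 and vehicle libraries did not overlap, while vehicle and t0 libraries overlapped in SAN. The CN03 log2FC of TIMP2 was 2.32 (SE 0.10) in SAN and 2.40 (SE 0.10) in atria, with an adjusted p of 2.65e-15 in SAN and 7.4e-16 in atria, and the culture log2FC was 0.01 in SAN and -0.28 in atria. TIMP4, the TIMP best known from mammalian heart, took another course. In SAN, TIMP4 had log2 expression of 1.81, 2.52, 2.19 and 2.14 with CN03, 2.21, 2.67, 2.44 and 2.67 with vehicle and 4.86, 5.04, 4.79 and 5.07 at t0. TIMP4 in atria had log2 expression of 0.18, 0.74, 0.94 and 0.54 with CN03, 1.24, 0.74, 0.43 and 0.92 with vehicle and 2.24, 1.98, 2.66 and 3.92 at t0. TIMP4 was lower in every vehicle library than in every t0 library of its tissue (log2FC -2.44 in SAN and -1.87 in atria), and its CN03 and vehicle libraries overlapped (log2FC -0.33 in SAN and -0.23 in atria, not called). It was higher in SAN than in atria in all 3 conditions, by 1.56 with CN03, 1.67 with vehicle and 2.24 at t0.

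**Figure D3:**
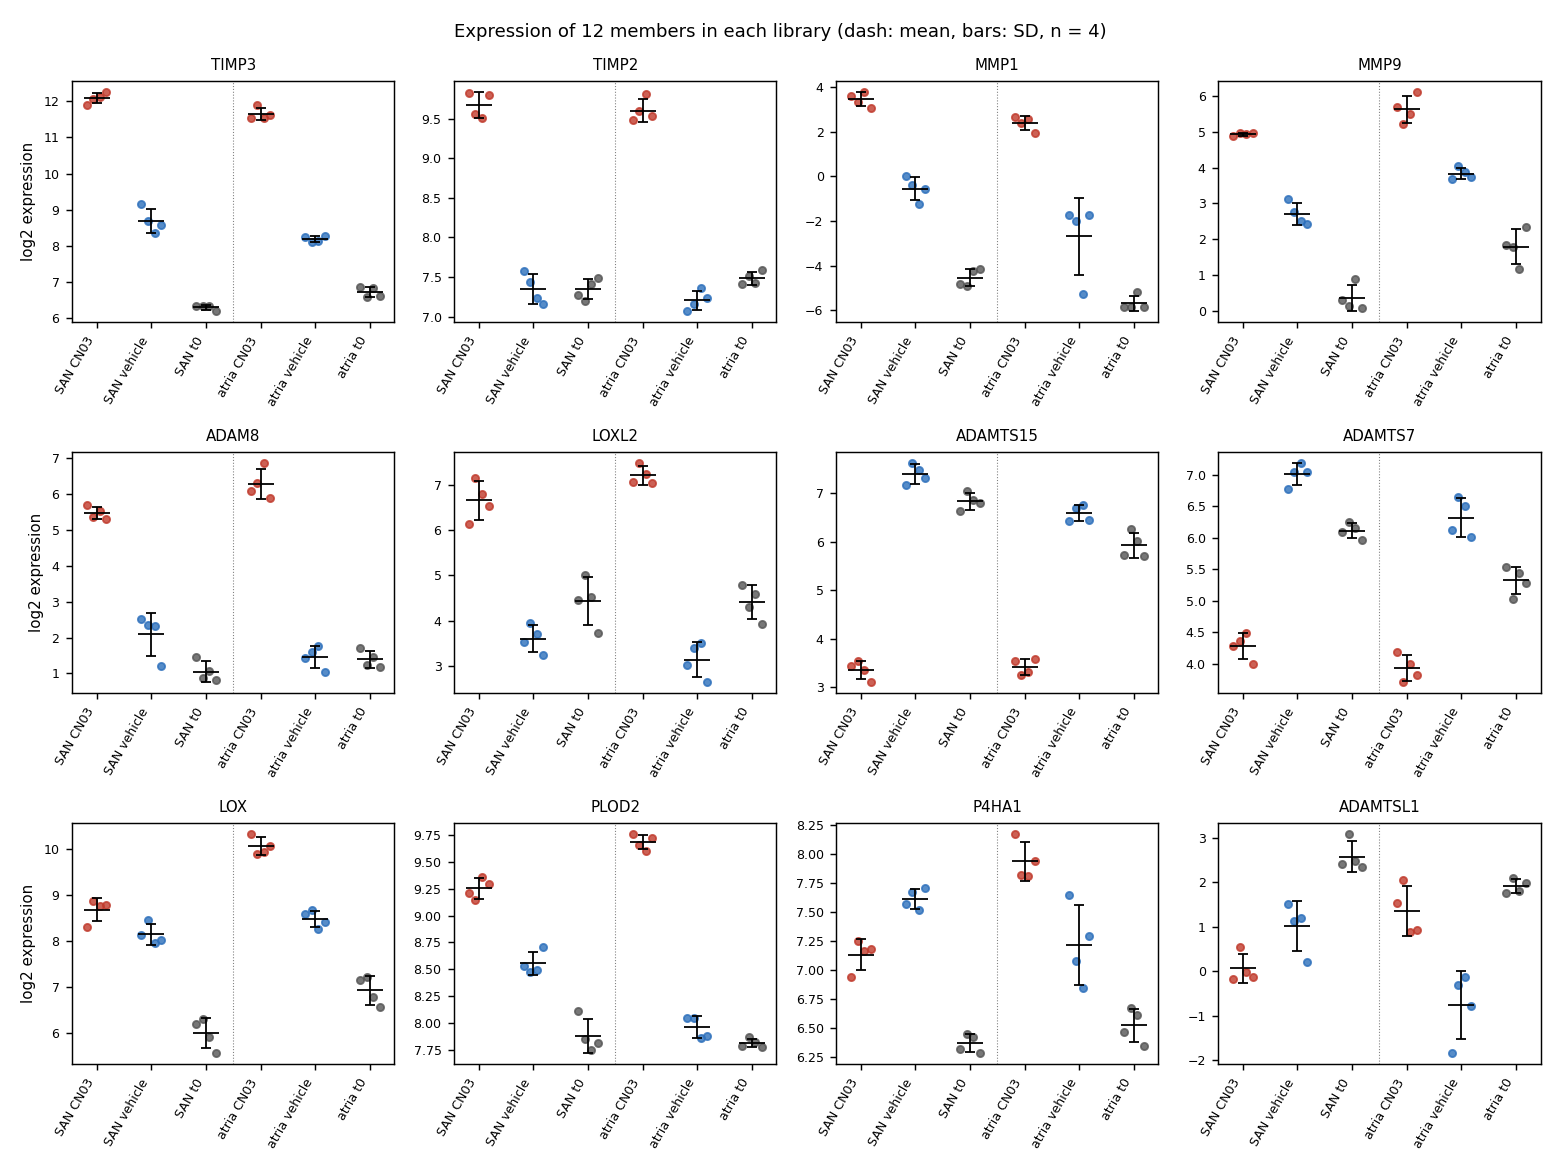
Log2 expression of 12 members (panels) in each library by group, with CN03 in red, vehicle in blue and t0 in grey, the mean as a dash and the SD as bars (n = 4). TIMP3, MMP1 and MMP9 are highest with CN03 and lowest at t0, TIMP2, ADAM8 and LOXL2 are high only with CN03 among these 3 conditions, and ADAMTS15 and ADAMTS7 are low only with CN03.

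Among the collagenases, MMP1 had the largest CN03 log2FC of the 57 genes in atria, and in SAN only ADAMTS15 had a larger absolute log2FC. It cuts fibrillar collagen. MMP1 in SAN had log2 expression of 3.62, 3.34, 3.78 and 3.08 with CN03, 0.01, -0.41, -1.22 and -0.58 with vehicle and -4.83, -4.90, -4.26 and -4.15 at t0. In atria, MMP1 had log2 expression of 2.68, 2.37, 2.56 and 1.96 with CN03, -1.73, -2.01, -5.26 and -1.73 with vehicle and -5.87, -5.87, -5.19 and -5.87 at t0. The CN03 libraries lay above all vehicle libraries in both tissues. The CN03 log2FC was 4.00 (SE 0.54, adjusted p = 5.36e-07) in SAN and 5.08 (SE 0.54, adjusted p = 1.06e-08) in atria. In atria at t0, 3 libraries held the lowest value of the whole table, -5.87, and vehicle-treated replicate 3 stood at -5.26, so the culture log2FC of MMP1 in atria (3.02) depends on that floor. That vehicle library lay far below the others of its group. The CN03 log2FC of MMP1 in atria, and its place as the largest there, depend on that library too. In SAN, where the culture log2FC was 3.99, the t0 libraries were low (-4.90 to -4.15) but not at the floor. With a pseudocount of 1 added to the linear values, the culture log2FC was 0.71 in SAN and 0.25 in atria, both short of the limit of 1, and the CN03 log2FC in atria was 2.37.

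MMP13, another collagenase, lies 55.4 kb from MMP1 on chromosome 1 (MMP13 at chr1:182278268-182285583 and MMP1 at chr1:182340940-182347463, GRCg7b), and rose over culture but not with CN03. In SAN, MMP13 had log2 expression of 2.08, 0.37, 0.40 and 0.99 with CN03, 2.50, 1.45, 2.49 and 1.77 with vehicle and -0.81, -2.30, -0.75 and -0.45 at t0. MMP13 in atria had log2 expression of 1.13, -0.05, 1.15 and 1.35 with CN03, 0.64, 0.64, 1.37 and 1.56 with vehicle and -4.09, -2.88, -3.20 and -2.97 at t0. All vehicle libraries lay above all t0 libraries, and MMP13 was higher by 3.13 in SAN (adjusted p = 2.72e-06) and by 4.34 in atria (adjusted p = 1.17e-08). The size of these values depends on the low t0 libraries. With a pseudocount of 1 the culture log2FC was 1.78 in SAN and 1.49 in atria, both still called. CN03 and vehicle libraries overlapped in both tissues. MMP13 was called lower with CN03 in SAN (log2FC -1.09, SE 0.43, adjusted p = 0.0289), a call that was lost without any 1 of 4 libraries (CN03-treated SAN 2 or 3, vehicle-treated SAN 1 or 3, log2FC -0.89 to -0.95) with a pseudocount of 1 (log2FC -0.78) and with quantile normalization (log2FC -0.52, adjusted p = 0.257).

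The gelatinases differed from each other. MMP9, gelatinase B, cuts denatured and basement membrane collagen and is made by leukocytes among other cells. MMP9 in SAN had log2 expression of 4.88, 4.97, 4.94 and 4.98 with CN03, 3.12, 2.76, 2.51 and 2.42 with vehicle and 0.31, 0.14, 0.88 and 0.08 at t0. In atria, MMP9 had log2 expression of 5.70, 5.23, 5.51 and 6.13 with CN03, 3.68, 4.04, 3.87 and 3.76 with vehicle and 1.85, 1.78, 1.15 and 2.35 at t0. In each tissue the CN03, vehicle and t0 libraries formed 3 ranges that did not overlap. MMP9 was 4.72-fold higher with CN03 than with vehicle in SAN (log2FC 2.24, SE 0.22, adjusted p = 2.88e-09) and 3.49-fold higher in atria (log2FC 1.80, SE 0.22, adjusted p = 8.13e-08). Of the 12 macrophage and leukocyte markers, 11 were called lower with CN03 in SAN and 8 in atria. Over culture, where MMP9 rose too, 3 of these markers were called higher in SAN and 5 in atria. Their part in the MMP9 values was not tested. MMP9 was lower in SAN than in atria with vehicle (log2FC -1.13) and at t0 (log2FC -1.43), and its log2FC between the tissues with CN03 was -0.70, short of the limit. MMP2, gelatinase A, was called in no 2-group comparison, with a CN03 log2FC of -0.32 in SAN and 0.78 in atria.

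Of the membrane-bound MMPs, MMP17 rose with CN03 in atria and MMP24 fell in both tissues. MMP17 is anchored by a lipid tail. In SAN, MMP17 had log2 expression of 3.30, 3.29, 4.01 and 3.43 with CN03, 3.34, 2.75, 2.67 and 2.37 with vehicle and 2.69, 2.71, 2.41 and 2.02 at t0. MMP17 in atria had log2 expression of 3.60, 3.29, 3.86 and 3.84 with CN03, 1.83, 1.55, 1.33 and 1.41 with vehicle and 3.09, 2.94, 3.24 and 3.09 at t0. In atria the vehicle libraries lay below both the CN03 and the t0 libraries, so that MMP17 was lower with vehicle than at t0 (log2FC -1.56, adjusted p = 4.49e-07) and higher with CN03 than with vehicle (log2FC 2.12, SE 0.20, adjusted p = 1.41e-09). In SAN the CN03 and vehicle libraries overlapped (log2FC 0.73, not called), and with quantile normalization MMP17 was called higher in SAN too (1.11, adjusted p = 3.75e-05). MMP24, known in mammals from the nervous system, followed with small but separate ranges. MMP24 in SAN had log2 expression of 3.62, 3.38, 3.54 and 3.41 with CN03, 4.75, 4.56, 4.63 and 4.67 with vehicle and 5.09, 4.85, 4.90 and 5.10 at t0. In atria, MMP24 had log2 expression of 3.32, 2.93, 3.04 and 3.43 with CN03, 4.52, 4.52, 4.37 and 4.59 with vehicle and 4.66, 4.61, 4.52 and 4.70 at t0. Every CN03 library was below every vehicle library (log2FC -1.17 in SAN and -1.32 in atria), and with quantile normalization the SAN value came to -0.98, just short of the limit. MMP15 and MMP16, membrane-bound as well, and MMP11, a secreted stromelysin, were called in no comparison. MMP28, a secreted MMP named epilysin, was not called with CN03 and was lower with vehicle than at t0 in atria (log2FC -1.40).

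ADAM8 had the strongest CN03 response of the 11 ADAM genes. It is a membrane protease that sheds surface receptors and is known from leukocytes. In SAN, ADAM8 had log2 expression of 5.70, 5.36, 5.52 and 5.31 with CN03, 2.51, 2.35, 2.32 and 1.21 with vehicle and 1.45, 0.87, 1.07 and 0.81 at t0. ADAM8 in atria had log2 expression of 6.08, 6.31, 6.87 and 5.89 with CN03, 1.43, 1.61, 1.78 and 1.05 with vehicle and 1.71, 1.23, 1.47 and 1.17 at t0. The CN03 libraries stood above all vehicle and t0 libraries of their tissue, and ADAM8 was 10.4-fold higher with CN03 in SAN (log2FC 3.37, SE 0.24, adjusted p = 1.82e-11) and 28.3-fold higher in atria (log2FC 4.82, SE 0.24, adjusted p = 2.22e-14). Of the 12 macrophage and leukocyte markers, 11 were called lower with CN03 in SAN and 8 in atria, and PTPRC was called in neither. PTPRC averaged 2.05 with CN03 and 2.13 with vehicle in SAN, and 2.07 with CN03 and 1.82 with vehicle in atria. The part of leukocytes in the ADAM8 values was not tested. Over culture ADAM8 was called higher in SAN (log2FC 1.05), where the libraries overlapped and the call was lost without any 1 of 5 libraries (vehicle-treated SAN 1, 2 or 3, t0 SAN 2 or 4, log2FC 0.91 to 0.99) and with a pseudocount of 1.

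ADAM33, a mesenchymal ADAM linked to airway disease in humans, also rose. ADAM33 in SAN had log2 expression of 7.03, 7.33, 7.20 and 7.0 with CN03, 5.70, 5.97, 5.81 and 5.16 with vehicle and 6.10, 6.21, 6.35 and 6.13 at t0. In atria, ADAM33 had log2 expression of 6.19, 6.50, 6.25 and 6.16 with CN03, 4.14, 4.19, 3.85 and 3.66 with vehicle and 4.17, 4.45, 4.56 and 4.02 at t0. CN03 libraries exceeded all vehicle libraries of their tissue (log2FC 1.48, SE 0.15 in SAN and 2.31, SE 0.15 in atria). ADAM33 was higher in SAN than in atria with vehicle (1.70) and at t0 (1.90), and the difference was 0.87 with CN03, below the limit.

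ADAM12 and ADAM11 fell. ADAM12 sheds growth factors and is expressed in muscle precursors and mesenchyme. In SAN, ADAM12 had log2 expression of 3.83, 3.15, 3.62 and 3.76 with CN03, 5.07, 5.15, 5.11 and 4.77 with vehicle and 5.76, 5.59, 5.56 and 5.40 at t0. ADAM12 in atria had log2 expression of 4.79, 4.26, 4.47 and 4.32 with CN03, 6.04, 6.33, 6.10 and 5.98 with vehicle and 6.48, 6.21, 6.18 and 6.27 at t0. Its CN03 libraries were the lowest of each tissue with no overlap (log2FC -1.43 in SAN and -1.65 in atria, adjusted p = 1.76e-09 in SAN and 1.2e-10 in atria). ADAM11, a member without protease activity, was expressed near 0 on the log2 scale. ADAM11 in SAN had log2 expression of -1.08, -1.86, -2.56 and -2.21 with CN03, 0.69, 0.43, 0.76 and -0.25 with vehicle and 0.46, -0.66, 0.21 and -0.04 at t0. In atria, ADAM11 had log2 expression of -1.44, -2.05, -1.42 and -2.36 with CN03, -0.01, -1.12, -0.52 and -0.32 with vehicle and -1.03, -0.63, -0.63 and -1.01 at t0. CN03 libraries lay below vehicle libraries in both tissues (-2.33 in SAN and -1.33 in atria). At these low values the calls were lost with a pseudocount of 1 (-0.88 in SAN and -0.42 in atria), and the atrial call was lost with quantile normalization (-0.76, adjusted p = 0.0694). The general sheddases ADAM10 and ADAM17, and ADAM9, ADAM20 and ADAM23, were called in no comparison, with CN03 log2FC between -0.54 (ADAM17 in atria) and 0.67 (ADAM10 in atria). ADAM19, which the mouse heart needs for its valves and septum, and the catalytically inactive ADAM22 were not called with CN03.

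Of the 18 ADAMTS genes, 2 rose and 9 fell with CN03 in SAN, where 10.2% of all genes rose and 17.1% fell. In atria 4 rose and 8 fell, where 13.8% of all genes rose and 15.6% fell, with a median log2FC of -1.07 in SAN and -0.35 in atria. Among those that cut versican and aggrecan, ADAMTS15 fell the most. It lies at chr24:1731424-1743164 (GRCg7b). In SAN, ADAMTS15 had log2 expression of 3.44, 3.54, 3.36 and 3.11 with CN03, 7.17, 7.62, 7.47 and 7.31 with vehicle and 6.62, 7.04, 6.86 and 6.80 at t0. ADAMTS15 in atria had log2 expression of 3.54, 3.25, 3.32 and 3.59 with CN03, 6.43, 6.69, 6.76 and 6.45 with vehicle and 5.73, 6.26, 6.0 and 5.70 at t0. CN03 libraries ranged from 3.11 to 3.59 over both tissues, and no vehicle or t0 library of either tissue was below 5.70. ADAMTS15 was 16.3-fold lower with CN03 than with vehicle in SAN (log2FC -4.03, SE 0.13, adjusted p = 6.04e-17) and 8.92-fold lower in atria (log2FC -3.16, SE 0.13, adjusted p = 7.42e-16). ADAMTS8, of the same substrate group, lies 4.2 kb from ADAMTS15 on chromosome 24. ADAMTS8 in SAN had log2 expression of 2.81, 3.21, 3.26 and 2.43 with CN03, 4.57, 5.11, 4.27 and 4.51 with vehicle and 3.74, 2.90, 3.05 and 3.54 at t0. In atria, ADAMTS8 had log2 expression of 4.40, 3.92, 3.41 and 3.70 with CN03, 4.40, 4.02, 4.24 and 4.16 with vehicle and 3.36, 3.66, 3.60 and 3.38 at t0. In SAN the CN03 libraries lay below all vehicle libraries (log2FC -1.69, SE 0.22, adjusted p = 2.64e-07), whereas in atria they overlapped (-0.35, not called).

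ADAMTS4, the first of the aggrecan-cutting proteases to be named, rose in both tissues. In SAN, ADAMTS4 had log2 expression of 5.78, 5.81, 5.49 and 6.12 with CN03, 4.60, 4.53, 4.16 and 3.66 with vehicle and 2.43, 1.87, 1.99 and 2.36 at t0. ADAMTS4 in atria had log2 expression of 6.0, 5.83, 5.49 and 6.01 with CN03, 4.10, 3.71, 3.91 and 3.80 with vehicle and 1.61, 1.87, 1.77 and 2.21 at t0. The CN03, vehicle and t0 ranges did not overlap in either tissue. The CN03 log2FC was 1.56 (adjusted p = 9.09e-08) in SAN and 1.95 (adjusted p = 2.03e-09) in atria, and the culture log2FC was 2.08 in SAN and 2.02 in atria. ADAMTS20, which cuts versican in mouse skin, fell. ADAMTS20 in SAN had log2 expression of 3.15, 3.59, 4.25 and 3.14 with CN03, 5.02, 4.73, 5.28 and 5.50 with vehicle and 4.32, 3.89, 4.42 and 4.50 at t0. In atria, ADAMTS20 had log2 expression of 4.37, 3.99, 3.67 and 4.53 with CN03, 5.78, 6.0, 6.14 and 5.89 with vehicle and 5.72, 5.32, 5.98 and 5.49 at t0. CN03 libraries lay below all vehicle libraries in each tissue (log2FC -1.60 in SAN and -1.81 in atria). The versican-cutting ADAMTS1, ADAMTS5 and ADAMTS9 were not called with CN03 in either tissue, with log2FC in atria of 0.05 for ADAMTS1, 0.52 for ADAMTS5 and 0.85 for ADAMTS9. ADAMTS1 and ADAMTS5 are neighbours, 26.9 kb apart on chromosome 1.

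Of the procollagen N-proteinases, which trim the amino end of fibrillar procollagens, ADAMTS2 rose in both tissues. In SAN, ADAMTS2 had log2 expression of 3.82, 4.94, 4.94 and 4.38 with CN03, 2.54, 3.90, 3.56 and 3.15 with vehicle and 4.09, 5.04, 4.60 and 3.81 at t0. ADAMTS2 in atria had log2 expression of 5.05, 5.22, 5.16 and 4.93 with CN03, 3.17, 4.21, 3.58 and 2.83 with vehicle and 3.83, 4.67, 4.28 and 3.71 at t0. In SAN, 1 CN03 library (replicate 1) lay within the vehicle range, and the log2FC was 1.23 (SE 0.32, adjusted p = 0.00139), which came to 0.98 without vehicle-treated SAN replicate 1. In atria the CN03 libraries lay above all vehicle libraries (log2FC 1.64, SE 0.32, adjusted p = 6.84e-05). ADAMTS14 was called in atria alone. ADAMTS14 in SAN had log2 expression of 5.28, 5.53, 5.44 and 5.44 with CN03, 4.69, 5.04, 5.01 and 4.39 with vehicle and 5.48, 5.82, 5.70 and 5.30 at t0. In atria, ADAMTS14 had log2 expression of 5.44, 5.80, 5.56 and 5.57 with CN03, 3.87, 4.68, 4.77 and 4.12 with vehicle and 5.18, 5.96, 5.62 and 5.33 at t0. CN03 libraries exceeded vehicle libraries in both tissues (log2FC 0.64 in SAN and 1.24 in atria). ADAMTS3 was called in no comparison.

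ADAMTS7 and ADAMTS12 cut cartilage oligomeric matrix protein. In SAN, ADAMTS7 had log2 expression of 4.29, 4.35, 4.48 and 4.00 with CN03, 6.78, 7.05, 7.19 and 7.05 with vehicle and 6.09, 6.25, 6.15 and 5.96 at t0. ADAMTS7 in atria had log2 expression of 4.18, 3.71, 4.00 and 3.82 with CN03, 6.12, 6.66, 6.51 and 6.01 with vehicle and 5.53, 5.03, 5.44 and 5.29 at t0. ADAMTS7 was lower in every CN03 library than in any vehicle or t0 library, 6.68-fold against vehicle in SAN (log2FC -2.74, SE 0.14, adjusted p = 6.62e-14) and 5.26-fold in atria (log2FC -2.40, SE 0.14, adjusted p = 3.41e-13). ADAMTS12 had a log2FC above 0 in both tissues, near the limit in each. It was called in atria (log2FC 1.09), and the call was lost without CN03-treated atria replicate 2 or 3 (0.95 to 0.98) and with a pseudocount of 1 (0.98). In SAN it was not called (0.91), but was called with quantile normalization (1.36, adjusted p = 4.49e-05), without CN03-treated SAN replicate 1 (1.11) and without vehicle-treated SAN replicate 2 (1.03). The response of ADAMTS12 in SAN minus that in atria was -0.18 (SE 0.36, not called).

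ADAMTS13, the protease of von Willebrand factor, lies at chr17:7511633-7531962 (GRCg7b). ADAMTS13 in SAN had log2 expression of -0.90, 0.25, 0.62 and 0.72 with CN03, 2.57, 2.42, 3.04 and 2.78 with vehicle and 3.15, 2.96, 2.98 and 3.07 at t0. In atria, ADAMTS13 had log2 expression of -0.73, -0.06, -0.38 and 0.07 with CN03, 2.68, 3.29, 2.83 and 2.80 with vehicle and 2.11, 2.08, 2.06 and 2.51 at t0. CN03 libraries lay below all others of their tissue, with a log2FC of -2.53 (adjusted p = 7.69e-09) in SAN and -3.17 (adjusted p = 1.27e-10) in atria. ADAMTS10 acts on fibrillin microfibrils. In SAN, ADAMTS10 had log2 expression of 4.66, 4.36, 4.51 and 4.75 with CN03, 6.73, 6.77, 6.87 and 7.06 with vehicle and 6.09, 6.02, 6.20 and 6.63 at t0. ADAMTS10 in atria had log2 expression of 5.64, 5.37, 5.50 and 5.65 with CN03, 7.31, 7.42, 7.30 and 7.22 with vehicle and 5.93, 5.84, 5.97 and 5.88 at t0. It was higher with vehicle than at t0 in every library of both tissues (log2FC 0.62 in SAN, short of the limit, and 1.41 in atria) and lower with CN03 than with vehicle (-2.29 in SAN and -1.77 in atria). ADAMTS6, its close relative, was called in no comparison.

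ADAMTS17, ADAMTS18 and ADAMTS19 also fell with CN03. ADAMTS17 is linked in humans to a microfibril disorder. ADAMTS17 in SAN had log2 expression of -1.35, -1.41, -1.61 and -1.23 with CN03, 0.61, 0.41, 0.58 and 0.02 with vehicle and 1.79, 2.37, 1.43 and -0.04 at t0. In atria, ADAMTS17 had log2 expression of -0.96, -0.61, -1.55 and -1.35 with CN03, 0.77, 2.42, 1.58 and 1.05 with vehicle and 1.86, 1.35, 1.77 and 0.99 at t0. Its CN03 libraries were all below 0 and its vehicle libraries all above 0 (log2FC -1.81 in SAN and -2.57 in atria), and the SAN value came to -0.76 with a pseudocount of 1. In SAN, ADAMTS18 had log2 expression of 0.08, -0.63, 0.90 and -0.33 with CN03, 1.61, 2.50, 2.09 and 2.29 with vehicle and 3.28, 2.87, 3.60 and 3.23 at t0. ADAMTS18 in atria had log2 expression of -2.31, -1.35, -1.67 and -1.35 with CN03, -1.29, -0.23, -0.33 and -0.17 with vehicle and -0.10, -0.15, 0.12 and 0.01 at t0. ADAMTS18 had a CN03 log2FC of -2.12 in SAN (adjusted p = 1.71e-06) and -1.16 in atria (adjusted p = 0.00172), with no overlap of libraries. The atrial call was lost with a pseudocount of 1 (-0.38), with quantile normalization (-0.57) and without CN03-treated atria replicate 1 (-0.95). ADAMTS18 was higher in SAN than in atria in all 3 conditions, by 1.67 with CN03, 2.63 with vehicle and 3.28 at t0. ADAMTS19, linked in humans to heart valve disease, was likewise higher in SAN in all 3 conditions. ADAMTS19 in SAN had log2 expression of 1.92, 1.56, 2.01 and 2.01 with CN03, 4.16, 3.03, 3.45 and 2.54 with vehicle and 4.58, 4.13, 3.89 and 3.63 at t0. In atria, ADAMTS19 had log2 expression of 0.37, 0.52, 0.65 and -0.01 with CN03, 1.13, 2.20, 2.26 and 1.38 with vehicle and 3.30, 2.65, 3.08 and 3.14 at t0. CN03 libraries lay below vehicle libraries in each tissue (log2FC -1.42 in SAN and -1.36 in atria), and the atrial value came to -0.93 with a pseudocount of 1 and to -0.96 with quantile normalization.

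The ADAMTSL genes encode secreted relatives of ADAMTS that lack the protease domain. ADAMTSL5, which binds fibrillin, fell in both tissues. In SAN, ADAMTSL5 had log2 expression of 2.05, 2.27, 2.21 and 2.13 with CN03, 4.49, 4.90, 4.27 and 4.59 with vehicle and 3.10, 3.36, 3.31 and 3.63 at t0. ADAMTSL5 in atria had log2 expression of 2.66, 2.16, 2.05 and 2.63 with CN03, 4.48, 4.43, 4.61 and 4.08 with vehicle and 3.45, 2.37, 3.27 and 3.02 at t0. Its vehicle libraries were the highest of each tissue, above all t0 and all CN03 libraries (CN03 log2FC -2.40 in SAN and -2.03 in atria, culture log2FC 1.21 in SAN and 1.37 in atria). ADAMTSL1 had log2FC of opposite sign in the 2 tissues. ADAMTSL1 in SAN had log2 expression of -0.17, 0.54, -0.01 and -0.12 with CN03, 1.52, 1.12, 1.19 and 0.21 with vehicle and 2.40, 3.09, 2.48 and 2.34 at t0. In atria, ADAMTSL1 had log2 expression of 1.53, 2.06, 0.88 and 0.93 with CN03, -1.84, -0.30, -0.13 and -0.78 with vehicle and 1.75, 2.11, 1.81 and 1.97 at t0. In atria the CN03 libraries lay above all vehicle libraries (log2FC 2.11, SE 0.33, adjusted p = 4.58e-06), and in SAN 3 of 4 CN03 libraries lay below all vehicle libraries (log2FC -0.95, SE 0.33, not called). ADAMTSL1 was called lower in SAN without CN03-treated SAN replicate 2 (-1.11, adjusted p = 0.00805) or vehicle-treated SAN replicate 4 (-1.21, adjusted p = 0.00267). Culture lowered ADAMTSL1 in SAN (-1.57) and in atria (-2.68). With a pseudocount of 1 the log2FC of ADAMTSL1 in atria was 1.14 for CN03 and -1.55 for culture, both still called. ADAMTSL2 and ADAMTSL3 were not called with CN03.

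LOXL2, which crosslinks collagen IV of basement membranes, had the largest CN03 log2FC among the crosslinkers. It lies at chr22:1260728-1299046 (GRCg7b), in a span shared with R3HCC1. In SAN, LOXL2 had log2 expression of 6.14, 7.16, 6.80 and 6.53 with CN03, 3.53, 3.96, 3.71 and 3.26 with vehicle and 4.47, 5.01, 4.53 and 3.73 at t0. LOXL2 in atria had log2 expression of 7.05, 7.48, 7.24 and 7.04 with CN03, 3.02, 3.41, 3.51 and 2.66 with vehicle and 4.80, 4.31, 4.59 and 3.94 at t0. All CN03 libraries lay above all vehicle and t0 libraries, and LOXL2 was 8.25-fold higher with CN03 than with vehicle in SAN (log2FC 3.05, SE 0.24, adjusted p = 1.28e-10) and 16.6-fold higher in atria (log2FC 4.05, SE 0.24, adjusted p = 5.83e-13). LOX, the founding member of the family, crosslinks collagen and elastin. LOX in SAN had log2 expression of 8.31, 8.88, 8.77 and 8.79 with CN03, 8.13, 8.47, 7.96 and 8.03 with vehicle and 6.20, 6.31, 5.92 and 5.58 at t0. In atria, LOX had log2 expression of 10.33, 9.89, 9.94 and 10.08 with CN03, 8.58, 8.67, 8.27 and 8.41 with vehicle and 7.17, 7.23, 6.79 and 6.56 at t0. In atria its CN03 libraries lay above all vehicle libraries (log2FC 1.58, SE 0.17, adjusted p = 9.4e-09), while in SAN they overlapped (0.54, not called). Over culture LOX rose in every library of both tissues (log2FC 2.15 in SAN and 1.54 in atria).

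LOXL1, needed for elastic fibres in mice, changed over culture only. In SAN, LOXL1 had log2 expression of 7.90, 7.84, 7.79 and 8.06 with CN03, 8.20, 8.24, 8.0 and 8.04 with vehicle and 6.57, 6.56, 6.70 and 6.87 at t0. LOXL1 in atria had log2 expression of 7.57, 7.62, 7.72 and 7.78 with CN03, 7.74, 7.47, 7.72 and 7.84 with vehicle and 6.43, 6.31, 6.45 and 6.63 at t0. Every vehicle library exceeded every t0 library (log2FC 1.45 in SAN and 1.24 in atria), and CN03 and vehicle libraries overlapped. LOXL3, required for palate and spine development in mice, fell with CN03. LOXL3 in SAN had log2 expression of 4.78, 4.84, 4.77 and 5.14 with CN03, 6.78, 6.92, 6.70 and 6.61 with vehicle and 5.73, 5.83, 6.07 and 5.96 at t0. In atria, LOXL3 had log2 expression of 4.69, 4.67, 4.65 and 5.23 with CN03, 5.53, 5.73, 5.87 and 5.62 with vehicle and 5.71, 6.08, 5.87 and 5.72 at t0. CN03 libraries lay below vehicle libraries in both tissues, and the fall was called in SAN (log2FC -1.87, SE 0.12, adjusted p = 4.16e-12) and stayed short of the limit in atria (log2FC -0.88, adjusted p = 8.48e-07). Without CN03-treated atria replicate 4, the highest of its group, LOXL3 was called lower in atria as well (-1.02, adjusted p = 2.47e-08).

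Of the 5 intracellular collagen hydroxylases, P4HA2 rose with CN03 in both tissues, PLOD2 and P4HA3 rose in atria alone, and PLOD1 and P4HA1 were called in neither. PLOD2 hydroxylates lysines at the collagen ends, from which the stable crosslinks form. In SAN, PLOD2 had log2 expression of 9.21, 9.14, 9.36 and 9.30 with CN03, 8.53, 8.48, 8.49 and 8.71 with vehicle and 8.11, 7.85, 7.75 and 7.82 at t0. PLOD2 in atria had log2 expression of 9.76, 9.66, 9.60 and 9.72 with CN03, 8.05, 8.05, 7.86 and 7.88 with vehicle and 7.79, 7.86, 7.82 and 7.78 at t0. CN03 libraries exceeded vehicle libraries in both tissues, by a log2FC of 0.70 (adjusted p = 2.65e-08, short of the limit) in SAN and 1.73 (adjusted p = 3.14e-15) in atria. PLOD1 hydroxylates lysines of the triple helix. PLOD1 in SAN had log2 expression of 7.67, 7.66, 7.50 and 7.57 with CN03, 7.67, 7.78, 7.62 and 7.70 with vehicle and 6.90, 7.11, 6.85 and 6.72 at t0. In atria, PLOD1 had log2 expression of 8.42, 8.09, 8.14 and 8.32 with CN03, 7.92, 8.12, 7.70 and 7.88 with vehicle and 7.15, 7.26, 7.04 and 7.02 at t0. Its CN03 and vehicle libraries overlapped in both tissues, and it was called in no 2-group comparison, with log2FC of 0.80 in SAN and 0.79 in atria over culture.

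P4HA1, P4HA2 and P4HA3 are alternative catalytic subunits of collagen prolyl 4-hydroxylase. P4HA2 rose in both tissues. In SAN, P4HA2 had log2 expression of 7.75, 7.76, 7.78 and 7.53 with CN03, 6.28, 6.45, 6.28 and 6.56 with vehicle and 5.12, 4.86, 5.28 and 5.39 at t0. P4HA2 in atria had log2 expression of 7.54, 7.48, 7.46 and 7.36 with CN03, 6.43, 5.93, 5.52 and 6.08 with vehicle and 4.92, 5.27, 5.19 and 5.01 at t0. All CN03 libraries lay above all vehicle libraries, with a log2FC of 1.31 (SE 0.14) in SAN and 1.47 (SE 0.14) in atria. P4HA1 had log2FC of opposite sign in the 2 tissues. P4HA1 in SAN had log2 expression of 6.94, 7.25, 7.17 and 7.18 with CN03, 7.57, 7.67, 7.52 and 7.71 with vehicle and 6.32, 6.46, 6.43 and 6.29 at t0. In atria, P4HA1 had log2 expression of 8.18, 7.83, 7.81 and 7.94 with CN03, 7.65, 7.08, 6.84 and 7.30 with vehicle and 6.47, 6.67, 6.61 and 6.35 at t0. With CN03 the SAN libraries all lay below, and the atrial libraries all above, the vehicle libraries of their tissue (log2FC -0.48 in SAN and 0.72 in atria, adjusted p = 0.00106 in SAN and 1.11e-05 in atria, neither past the fold limit). P4HA3 was called with CN03 in atria alone. In SAN, P4HA3 had log2 expression of 3.50, 2.49, 3.55 and 3.81 with CN03, 3.63, 3.43, 3.19 and 2.94 with vehicle and 4.41, 3.59, 3.93 and 3.93 at t0. P4HA3 in atria had log2 expression of 2.89, 3.34, 3.16 and 3.77 with CN03, 2.31, 1.48, 2.22 and 2.30 with vehicle and 1.10, 1.61, 1.90 and 2.09 at t0. CN03 and vehicle libraries overlapped in SAN (log2FC 0.04) and were separate in atria (log2FC 1.21, adjusted p = 0.000319).

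SERPINH1, the collagen chaperone HSP47, was not called with CN03. SERPINH1 in SAN had log2 expression of 9.51, 9.63, 9.64 and 9.50 with CN03, 9.28, 9.31, 9.34 and 9.22 with vehicle and 7.80, 8.37, 8.39 and 7.98 at t0. In atria, SERPINH1 had log2 expression of 9.58, 9.70, 9.67 and 9.56 with CN03, 8.89, 8.84, 8.82 and 8.75 with vehicle and 7.54, 8.20, 8.31 and 7.93 at t0. Its CN03, vehicle and t0 ranges did not overlap in either tissue. CN03 exceeded vehicle by 0.28 in SAN and 0.80 in atria, and vehicle exceeded t0 by 1.15 in SAN and 0.83 in atria on the log2 scale. SERPINE2, protease nexin 1, inhibits thrombin and urokinase. In SAN, SERPINE2 had log2 expression of 9.76, 9.48, 9.87 and 9.78 with CN03, 9.35, 9.19, 9.44 and 9.34 with vehicle and 8.35, 8.46, 8.36 and 8.42 at t0. SERPINE2 in atria had log2 expression of 9.77, 9.57, 9.68 and 9.79 with CN03, 9.67, 9.74, 9.51 and 9.45 with vehicle and 10.28, 9.80, 10.30 and 10.03 at t0. It was lower in SAN than in atria at t0 (log2FC -1.71, adjusted p = 8.54e-12) and was not called between the tissues in the cultured groups (0.02 with CN03 and -0.26 with vehicle). CN03 gave log2FC of 0.40 in SAN and 0.11 in atria.

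The difference in the CN03 response between SAN and atria was tested directly as an interaction, with no fold limit. It was called for 20 of the 57 genes, 35.1% of them against a background of 27.1% of all genes, and in all 20 the log2FC was lower in SAN than in atria, against 15.4% of all genes lower and 11.7% higher. No member was called with a higher response in SAN by limma, and none had a positive difference at an unadjusted p under 0.05. Without CN03-treated SAN replicate 1, ADAMTS13 was called higher (1.00), and without vehicle-treated SAN replicate 2, MMP15 was (0.29). The difference was negative for 43 of the 57 genes, or 75.4%, against 54.0% of all genes. Its median as deposited was -0.39 over the members and -0.04 over all genes. With quantile normalization the difference was negative for 38 of the 57, and its median over all genes was 0.04. The 54.0% belongs to the values as deposited and is no background for these 38, so the count depends in part on the scaling. By the sign of the log2FC alone, the 20 genes took 3 forms. In 8 the log2FC was above 0 in both tissues and larger in atria, in 8 it was below 0 in SAN and above 0 in atria, and in 4 it was below 0 in both and further below in SAN. Some of these signs are not established. In SAN the adjusted p of limma was above 0.05 for MMP2 (-0.32), ADAMTSL2 (-0.34), ADAMTS9 (-0.11) and PLOD1 (-0.09), counted as opposite. The same held for P4HA3 (0.04) and SERPINH1 (0.28), counted as above 0 in both. Not all atrial signs rest on separate libraries either. In atria the CN03 and vehicle libraries overlapped for ADAMTS8, counted as below 0 in both, and for ADAMTS5 and PLOD1, counted as opposite.

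ADAMTSL1 had the largest difference (-3.06, SE 0.47, adjusted p = 4.47e-05), followed by ADAMTSL3 (-1.46, with a log2FC of -0.65 in SAN and 0.81 in atria). The values of ADAMTSL1 were low, and with a pseudocount of 1 its difference was -1.71, still called. Of the 8 genes with a log2FC above 0 in both tissues, ADAM8 differed by -1.45 (adjusted p = 0.00279), MMP17 by -1.40, PLOD2 by -1.03 (adjusted p = 4.91e-07), LOX by -1.04, ADAM33 by -0.83 and P4HA3 by -1.18. LOXL2 (-1.01) and SERPINH1 (-0.52) were the others. P4HA1 differed by -1.21 (adjusted p = 1.83e-05). Genes whose log2FC was below 0 in both tissues were ADAMTS8 (-1.34), ADAMTS15 (-0.87), ADAMTS10 (-0.52) and LOXL3 (-0.99).

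The remaining called differences were MMP2 (-1.10), ADAMTS5 (-1.12), ADAMTS9 (-0.96), ADAMTSL2 (-0.79) and PLOD1 (-0.43), none of which was called with CN03 in either tissue alone. In contrast TIMP3 (-0.06, SE 0.17), TIMP2 (-0.07, SE 0.14) and P4HA2 (-0.16, SE 0.19) had differences smaller than their standard errors. Several calls depended on single libraries. The LOXL2 call was lost without any 1 of 7 libraries (CN03-treated SAN 1 or 4, vehicle-treated SAN 2 or 3, CN03-treated atria 2, vehicle-treated atria 1 or 4, difference -0.84 to -0.98). That of SERPINH1 was lost without any 1 of 8 (CN03-treated SAN 1 or 4, vehicle-treated SAN 2 or 3, CN03-treated atria 2 or 3, vehicle-treated atria 3 or 4, -0.49 to -0.52). ADAMTSL2 was lost without any 1 of 5 (CN03-treated SAN 1 or 3, vehicle-treated SAN 4, CN03-treated atria 4, vehicle-treated atria 2, -0.67 to -0.72), and P4HA3 without any 1 of 4 (CN03-treated SAN 2, vehicle-treated SAN 1, CN03-treated atria 4, vehicle-treated atria 2, -0.89 to -1.06). Quantile normalization left 16 of the 20, losing LOXL2, SERPINH1, ADAMTSL2 and ADAMTS5. ADAMTS14, ADAMTS18 and ADAM11, not among the 20, were called lower in SAN without a single library (ADAMTS14 without vehicle-treated SAN 4 or vehicle-treated atria 3, -0.72 to -0.73, ADAMTS18 without CN03-treated SAN 3, -1.25, and ADAM11 without CN03-treated SAN 1, -1.29), and ADAMTS18 also with a pseudocount of 1 (-1.02). Endothelial and endocardial markers moved the same way, 9 of 12 with a lower response in SAN and none higher, and their summed level was 9.32 to 9.50 in CN03-treated SAN and 9.51 to 9.65 in vehicle-treated SAN, against 9.41 to 9.74 in CN03-treated atria and 8.82 to 9.15 in vehicle-treated atria. Their part in the result was not tested.

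Culture with vehicle changed 17 of the 57 genes against t0 in SAN, 13 higher and 4 lower, or 29.8% against a background of 13.6% (8.01% higher and 5.59% lower). Without t0 SAN replicate 4, 7 genes were lower. In atria it changed 22, 13 higher and 9 lower, or 38.6% against a background of 19.2% (10.1% higher and 9.02% lower). MMP1, MMP9, MMP13, TIMP3, LOX, LOXL1, ADAMTS4 and ADAMTSL5 were higher in both tissues, as given above, and TIMP4 and ADAMTSL1 were lower in both. In SAN alone the calls were P4HA1 (1.25), P4HA2 (1.23), SERPINH1 (1.15), ADAMTS8 (1.31) and ADAM8 higher, and ADAMTS2 (-1.09) and ADAMTS18 (-1.12) lower. The ADAMTS2 call was lost without vehicle-treated SAN 1 or t0 SAN 2 (-0.84 to -0.88) and that of ADAMTS18 without vehicle-treated SAN 1 (-0.95) and with a pseudocount of 1 (-0.97). In atria P4HA2 (0.89), SERPINH1 (0.83), ADAMTS8 (0.71) and P4HA1 (0.69) also rose at an adjusted p under 0.05, short of the fold limit. P4HA2 was called higher in atria too without vehicle-treated atria 3 (1.05).

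In atria alone ADAMTSL2, which binds microfibrils and is linked to a human growth disorder, had the largest rise. Its log2 expression was 5.91, 5.46, 5.79 and 5.78 in vehicle-treated atria and 2.08, 2.48, 2.20 and 2.42 in t0 atria, with no overlap (log2FC 3.44, SE 0.18, adjusted p = 2.77e-13), against 0.73 in SAN. ADAMTS1 (1.65), ADAMTS10 (1.41), ADAM19 (1.25) and ADAMTS7 (1.00) were higher in atria too. In SAN, ADAMTS7 (0.90), ADAMTS10 (0.62) and ADAMTS1 (0.42) also rose at an adjusted p under 0.05, short of the fold limit, while ADAM19 did not. Lower in atria alone were MMP17 (-1.56), MMP28 (-1.40), ADAMTSL3 (-1.40), ADAMTS19 (-1.30), LOXL2 (-1.26), ADAMTS14 (-1.17) and ADAM22 (-1.02). The ADAMTS7 call was lost without vehicle-treated atria 2 or 3 or t0 atria 2 or 4 (0.89 to 0.99), and that of ADAM22 without vehicle-treated atria 1 or 4 or t0 atria 2 or 3 (-0.87 to -0.98). With a pseudocount of 1, ADAMTS7 (0.98), ADAM19 (0.99) and ADAM22 (-0.58) were short of the limit. Some of these genes were called lower in SAN as well when 1 library was left out, ADAM22 without vehicle-treated SAN 2 or t0 SAN 3 or 4 (-1.02 to -1.05), ADAMTS19 without vehicle-treated SAN 1 (-1.05) and LOXL2 without t0 SAN 4 (-1.05), and ADAM22 also with quantile normalization (-1.19). Endothelial markers were lower with vehicle than at t0 for 7 of 12 in atria and 3 of 12 in SAN. Blood markers were lower for 4 of 5 in atria and none of 5 in SAN. Macrophage and leukocyte markers were higher for 5 of 12 in atria and 3 of 12 in SAN, with none lower. The part of these cell types in the culture values was not tested. A difference in the culture response between the tissues was not tested.

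**Figure D4:**
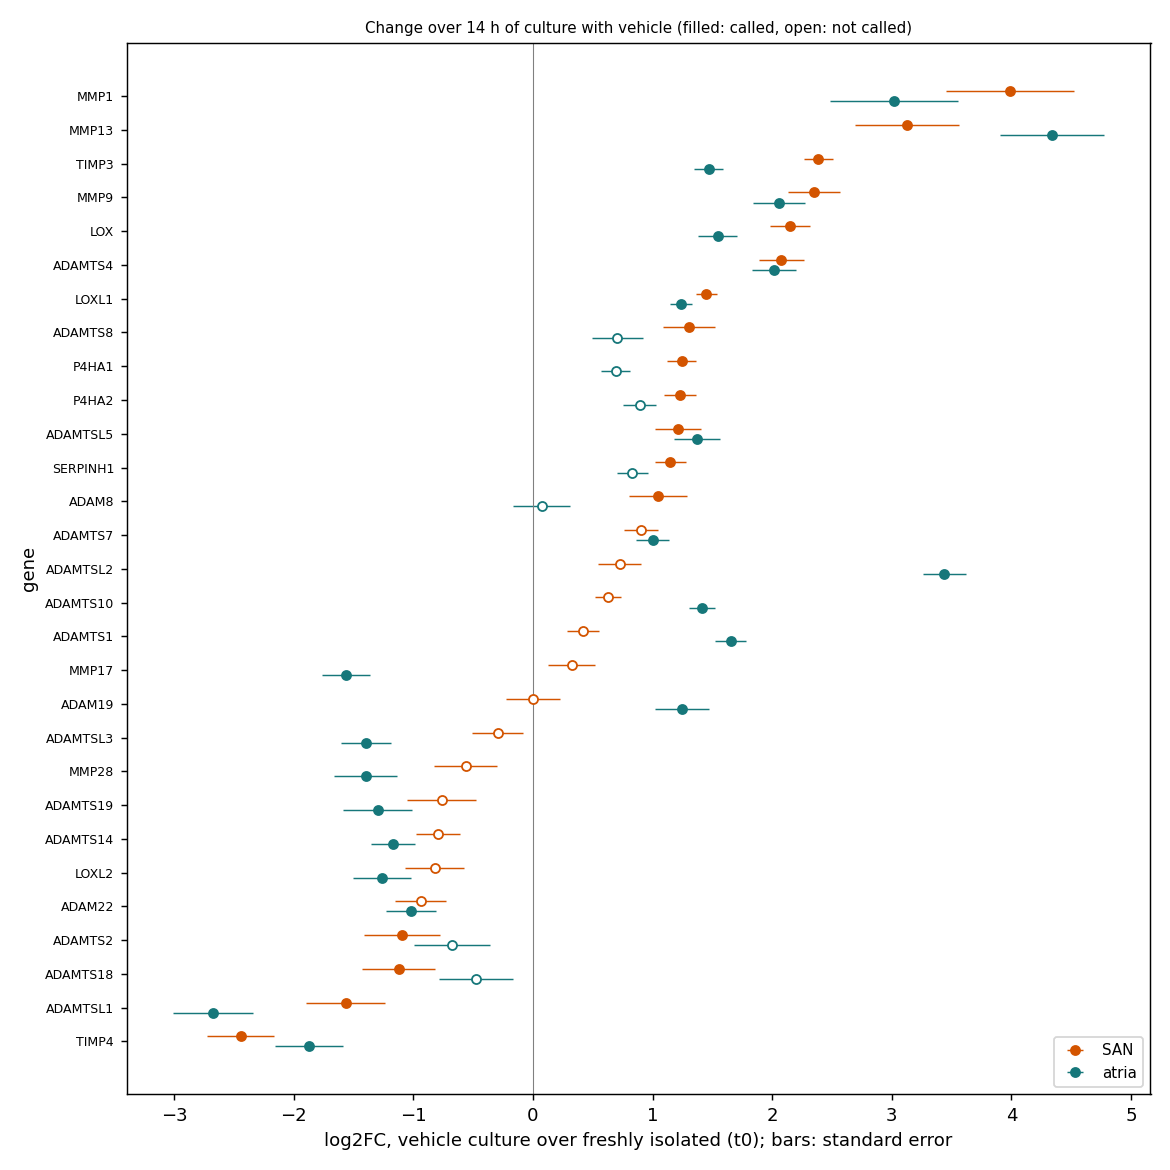
Log2FC of vehicle culture over t0 for the 29 genes called in SAN or in atria (rows), with standard errors from limma, filled where called and open where not. MMP1, MMP13, TIMP3, MMP9, LOX and ADAMTS4 lie to the right in both tissues, TIMP4 and ADAMTSL1 lie to the left in both, and ADAMTSL2 lies far to the right in atria alone.

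At t0, 13 of the 57 genes differed between SAN and atria, 10 higher and 3 lower in SAN, or 22.8% against a background of 9.72% (6.86% higher and 2.87% lower). Without t0 SAN replicate 2, 5 genes were lower, with LOX (-1.04) and ADAMTS5 (-1.12) added, and with a pseudocount of 1, 6 were higher. The largest was ADAMTS18 (log2FC 3.28), followed by ADAMTSL2 (2.43), P4HA3 (2.29), TIMP4 (2.24), MMP13 (2.21), ADAM33 (1.90) and ADAMTS9 (1.61). ADAM22 (1.21), ADAM19 (1.08) and ADAMTS19 (1.02) were also higher in SAN, and SERPINE2 (-1.71), MMP9 (-1.43) and ADAMTS20 (-1.35) were lower. ADAMTSL2 measured 4.78, 4.20, 4.83 and 5.09 in t0 SAN and 2.08, 2.48, 2.20 and 2.42 in t0 atria, without overlap, as log2 expression. ADAMTS9, which the mouse heart needs for versican turnover, measured 5.45, 5.21, 5.14 and 5.10 in t0 SAN and 3.72, 3.53, 3.77 and 3.45 in t0 atria, again without overlap. MMP13 was low in all t0 libraries, and its call was lost with a pseudocount of 1 (0.45) and with quantile normalization (0.95, adjusted p = 0.0742). The pseudocount also left ADAM22 (0.88), ADAM19 (0.84), ADAMTS19 (0.94) and MMP9 (-0.97) short of the limit, and quantile normalization did so for ADAM22 (0.82), ADAM19 (0.75) and ADAMTS19 (0.95). The ADAM19 call was lost without t0 atria 1 or 3 (0.90 to 0.99) and that of ADAMTS19 without t0 SAN 1 or 2 or t0 atria 2 (0.84 to 0.99). At t0 the macrophage markers were higher in SAN for 9 of 12, the fibroblast markers for 3 of 10 and the neural markers for 5 of 9, and their part in the result was not tested.

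After culture with vehicle 14 genes differed, 11 higher and 3 lower in SAN, or 24.6% against a background of 11.0% (7.66% higher and 3.36% lower). With CN03 9 differed, 5 higher and 4 lower, or 15.8% against a background of 7.91% (3.84% higher and 4.07% lower), and with a pseudocount of 1, 3 were higher. TIMP4, ADAMTS18, ADAMTS19 and ADAM22 were higher in SAN in all 3 conditions. ADAM33 and P4HA3 were higher in SAN at t0 and with vehicle, and with CN03 the difference was 0.87 for ADAM33 and 0.05 for P4HA3. MMP28 was higher in SAN with CN03 (1.90) and with vehicle (1.36) and was not called at t0 (0.52). ADAMTSL1 was lower in SAN with CN03 (-1.29) and higher in SAN with vehicle (1.77). LOX (-1.37), ADAMTS5 (-1.41) and ADAMTSL2 (-1.07) were also lower in SAN with CN03, the last of them -0.95 without CN03-treated SAN 1 or CN03-treated atria 4 and -0.93 with quantile normalization. With vehicle, MMP1 (2.14), MMP17 (1.25) and LOXL3 (1.07) were higher and MMP9 (-1.13), ADAM12 (-1.09) and ADAMTS17 (-1.05) lower in SAN. The MMP1 value came to 1.28 without vehicle-treated atria 3 (adjusted p = 0.00399), and its call was lost with quantile normalization (1.16, adjusted p = 0.107). MMP1 was also higher in SAN at t0 (1.16) and with CN03 (1.06), with no overlap of libraries, but was not called. Without vehicle-treated atria 3 it was called in both (adjusted p = 0.00508 at t0 and 0.0095 with CN03). At t0, 3 of the 4 atrial libraries were at the lowest value of the table. The ADAMTS17 call was lost without vehicle-treated SAN 2 or 4 or vehicle-treated atria 2 or 3 (-0.72 to -1.05, adjusted p up to 0.148). With a pseudocount of 1, ADAM22 (0.66 with CN03 and 0.75 with vehicle), ADAMTSL1 (-0.81 with CN03 and 0.91 with vehicle), ADAMTS18 with CN03 (0.63) ADAMTS17 with vehicle (-0.71) and MMP1 with vehicle (0.49) were short of the limit. With quantile normalization ADAM22 (0.96 with CN03 and 0.78 with vehicle) was short of it too.

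**Figure D5:**
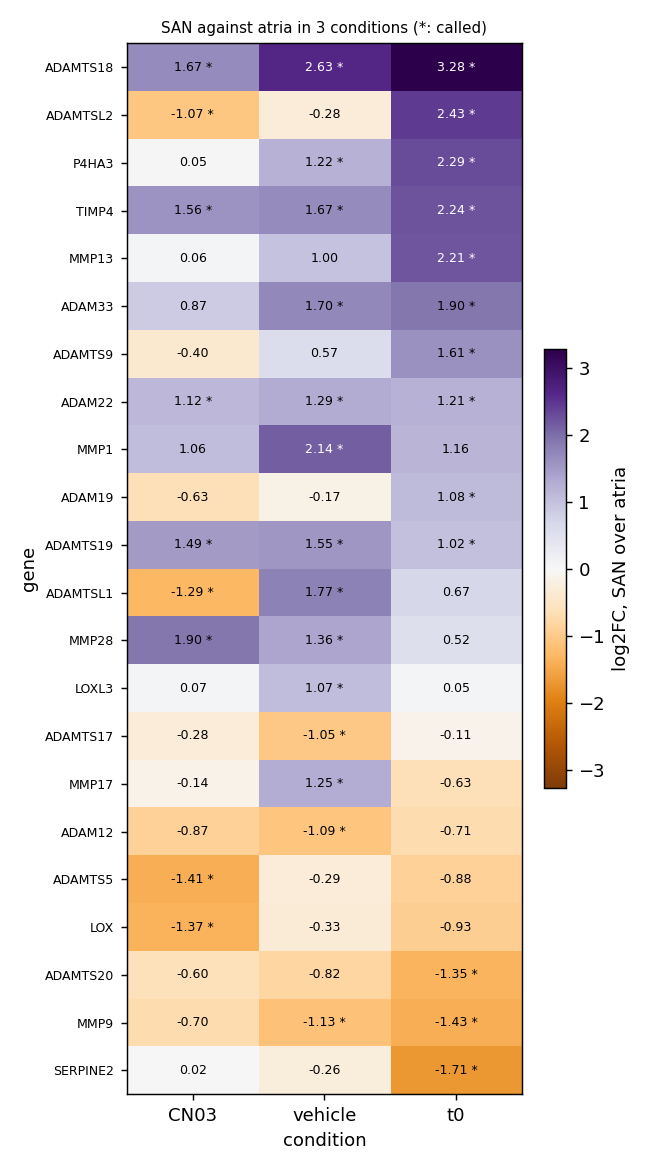
Log2FC of SAN over atria (cell colour and printed value) for the 22 genes called in at least 1 condition (rows), with CN03, with vehicle and at t0 (columns), an asterisk marking a call. ADAMTS18, TIMP4, ADAM22 and ADAMTS19 are higher in SAN in all 3 columns, and ADAMTSL2 is 2.43 at t0 and -1.07 with CN03.

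Other genes of the same processes were counted from lists written for the purpose, against a background with CN03 of 10.2% of all genes higher and 17.1% lower in SAN, and 13.8% higher and 15.6% lower in atria. The list for plasminogen activation, the protease system that activates several MMPs, also held other serpins and receptors. Of its 14 measured genes, 7 rose and 3 fell with CN03 in SAN and 5 rose and 2 fell in atria. SERPINB2, an inhibitor of plasminogen activators, rose by 3.83 in SAN and 4.23 in atria on the log2 scale, and the protease-activated receptor F2RL1 rose by 3.18 in SAN and 3.24 in atria. PLAT, the tissue-type activator, had a log2FC of -3.02 in SAN and -3.91 in atria, and SERPINF1 of -2.75 in SAN and -1.71 in atria. Of 22 other matrix proteases and inhibitors, 2 rose and 9 fell in SAN and 5 rose and 6 fell in atria, the 2 higher in SAN being near the background. The lysosomal protease CTSS fell in SAN (log2FC -2.80) along with DPP4 (-2.55), and the proprotein convertases PCSK6 (1.65) and PCSK5 (1.12) rose. In atria PAPPA2 (-5.55) and A2M (-3.38) fell, and HTRA3 (1.59) and PCSK6 (1.54) rose. These are the largest changes of each tissue, and most were not confined to it. In atria CTSS averaged 1.60 with CN03 and 3.56 with vehicle, DPP4 -1.73 and 0.72, and PCSK5 4.00 and 2.51. In SAN A2M averaged 0.28 with CN03 and 2.05 with vehicle. HTRA3 and PAPPA2 were not called in SAN, where HTRA3 averaged 1.70 with CN03 and 1.47 with vehicle, and PAPPA2 1.81 and 1.21. A response of these 2 genes in SAN is therefore not established. Some of these levels were low. PAPPA2 averaged -2.87 in CN03-treated atria, DPP4 -0.69 in CN03-treated SAN and HTRA3 0.04 in vehicle-treated atria, and no pseudocount result is given for them. CTSS is also expressed by macrophages, whose markers fell as given above.

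Of 20 genes of collagen maturation and procollagen processing, 2 rose and 1 fell with CN03 in SAN and 3 rose and none fell in atria, so that the shares higher were near the background in both tissues. PCOLCE2, an enhancer of procollagen C-proteinase, rose by 2.18 in SAN and 2.62 in atria, CRTAP, a subunit of the prolyl 3-hydroxylase complex, rose by 1.34 in SAN, and P3H2, a prolyl 3-hydroxylase, rose by 1.96 in atria. P3H3 fell in SAN (log2FC -1.06). CRTAP was higher with CN03 in atria too, averaging 7.99 against 6.52 with vehicle. In SAN P3H2 averaged 5.16 with CN03 and 4.63 with vehicle, and in atria P3H3 averaged 4.25 and 4.99. The CN03 response of 10 of these 20 was lower in SAN than in atria and that of 1 was higher, against 15.4% of all genes lower and 11.7% higher, with P3H2 (-1.43) and P3H4 (-1.28) the furthest apart and TLL1 (1.05) in the other direction. Of 25 genes of other crosslinkers and fibre assembly, 7 rose and 9 fell in SAN and 7 rose and 7 fell in atria. Fibronectin FN1 rose by 2.18 in SAN and 2.52 in atria and EMILIN2 by 2.17 in SAN and 2.17 in atria, while the small proteoglycans BGN (-3.27) and LUM (-2.52) fell in SAN and BGN (-3.76) and FBLN5 (-3.31) fell in atria. LUM was lower with CN03 in atria too, averaging 0.13 against 2.84 with vehicle, and FBLN5 in SAN, averaging 1.22 against 2.82. Of 8 genes of the hyaluronan and hyalectan matrix that ADAMTS proteases cut, 3 rose and 3 fell in SAN and 3 rose and 2 fell in atria. The hyaluronan receptor CD44 rose by 5.02 in SAN and 5.83 in atria, and the hyaluronan synthase HAS2 by 4.05 in SAN and 5.25 in atria. ACAN, aggrecan, fell by 1.36 in SAN and 1.59 in atria, HAPLN3 by 1.05 in SAN and 3.39 in atria. ACAN was low throughout, averaging -1.10 with CN03 and 0.26 with vehicle in SAN, and -1.02 with CN03 and 0.58 with vehicle in atria. With CN03, BGN averaged -1.12 in SAN and -2.33 in atria, and FBLN5 averaged -0.77 in atria. For members at such values a pseudocount of 1 shrank the log2FC, and its result for these genes is not given here.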

How the data were processed

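The deposited table holds log2 expression values that the authors had computed, filtered and normalised between libraries, for 12422 gene symbols in 24 libraries. RNA was extracted with Trizol, and stranded, ribosomal-RNA-depleted total RNA libraries were sequenced as paired-end reads. The submitters' processing notes name FastQC, kallisto, edgeR, limma and the GRCg7b build, and their versions and the normalisation are not given in the sources used here. A row without a gene symbol was left out of every test; it held 6.58 to 17.9% of the linear sum of a library (median 7.98%). Depth is unknown, so no counting error is given. The p-values set a difference of group means against the spread of pools within groups. That spread was estimated for each gene over all 24 libraries, with 4 pools of 5 tissue preparations per group. Reads shared between paralogs cannot be traced.

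Group means were fitted to all 24 libraries with limma 3.58.1 in R 4.3.3 (18 residual degrees of freedom, empirical Bayes with a mean-variance trend, Benjamini-Hochberg adjustment over 12422 genes), and a call required an adjusted p under 0.05 and an absolute log2FC above 1, without the fold limit for the difference in CN03 response between tissues. The code was tested on simulated data. Alternatives were a pseudocount of 1 on the linear values, a filter at a mean log2 above 0, quantile normalization, the replicate number as a block, and leaving out each library. Same-numbered libraries deviated together in all 4 pairs for CN03 against vehicle in atria (r 0.246 to 0.275) and SAN against atria at t0 (r 0.112 to 0.496), and in fewer pairs for the other 5 comparisons. The labels do not say that a number marks a shared batch. No comparison was fitted as paired in the main results, and the replicate number entered only in the alternative with a block.

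Members and gene lists were chosen with earlier results of these data known. By rule, values in every library are given for the 24 members with the largest absolute CN03 log2FC among those called and for every TIMP, LOX, LOXL, PLOD, P4HA, SERPINE and SERPINH gene, 33 in all. MMP13, MMP24, ADAMTS14 and ADAMTS19 are outside this rule and are given in every library as well. Other members are named where called or to complete a family, and from the other gene lists the 2 largest called changes in each direction. For 56 of 57 members positions were matched by symbol in the NCBI RefSeq gene table of GRCg7b, and 31 members share their span with another annotated gene; MMP11 matched only as an older name of a different gene and is given no position. The plots were made in Python 3.11.15 (matplotlib 3.10.9).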

Additional observations from a re-analysis of the deposited data

Results flagged for a closer look

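Among 198 combinations of a gene and a group (the 33 genes chosen by rule, without MMP13, MMP24, ADAMTS14 and ADAMTS19, in 6 groups of 4), 9 held 1 library further from the other 3 than Dixon's critical value allows, or 4.55%, where chance gives about 1 in 20. ADAM8 stood at 1.21 in vehicle-treated SAN replicate 4, against 2.32 to 2.51 in the others. TIMP3 was 6.20 in t0 SAN replicate 4 and P4HA2 was 7.53 in CN03-treated SAN replicate 4, both below the rest of their group by a small margin. MMP1 was -5.26 in vehicle-treated atria replicate 3, where the others were near -2, and -5.19 in t0 atria replicate 3, where the others were at the lowest value of the table. LOXL3 was 5.23 in CN03-treated atria replicate 4 and ADAMTS13 was 2.51 in t0 atria replicate 4, both above the others. ADAMTS18 was -1.29 in vehicle-treated atria replicate 1 and P4HA3 was 1.48 in vehicle-treated atria replicate 2, both below the others. These libraries stayed in every comparison, and 5 of the 9 were replicate 4 of their group.

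The CN03 response differed between SAN and atria for 20 members by the interaction test of limma (adjusted p under 0.05), with the log2FC in SAN minus that in atria below 0 in each. The differences were -3.06 for ADAMTSL1, -1.46 for ADAMTSL3, -1.45 for ADAM8, -1.40 for MMP17, -1.34 for ADAMTS8 and -1.21 for P4HA1. They were -1.18 for P4HA3, -1.12 for ADAMTS5, -1.10 for MMP2, -1.04 for LOX, -1.03 for PLOD2 and -1.01 for LOXL2. Smaller differences were found for LOXL3 (-0.99), ADAMTS9 (-0.96), ADAMTS15 (-0.87), ADAM33 (-0.83), ADAMTSL2 (-0.79), SERPINH1 (-0.52), ADAMTS10 (-0.52) and PLOD1 (-0.43).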

How the results depend on the processing

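Over the 8 comparisons 149 calls were made on members, and none reversed its direction under any alternative. The filter on low values kept all 142 calls that it could test, a pseudocount of 1 kept 123 of 149 and quantile normalization kept 132 of 149. The replicate block kept all 149 and added the difference in CN03 response of ADAMTS14 (-0.59, adjusted p = 0.00745), and changed no other call. It fitted the replicate number over all groups at once, and a pairing within each comparison was not tested. Leaving out each library in turn kept 132 calls throughout, and 17 were lost without at least 1 library. With a pseudocount of 1, members higher in SAN than in atria numbered 6 at t0, against 10 without it, and 3 with CN03, against 5 without it. Over the libraries left out, members lower with vehicle than at t0 in SAN numbered 3 to 7, members lower in SAN than in atria at t0 numbered 3 to 5, and members with a higher CN03 response in SAN numbered 0 to 1. Over all genes, a pseudocount of 1 gave 509 genes higher in SAN at t0 (852 without it), 604 with vehicle (952) and 223 with CN03 (477), and quantile normalization gave 630 lower in SAN with vehicle (418 without it). Of the 26 calls lost with the pseudocount, 4 were of ADAM22, 3 each of MMP1 and ADAMTS18, and 2 each of MMP13, ADAM11, ADAMTS17, ADAM19, ADAMTS19 and ADAMTSL1.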
